A study of Mus musculus with 24 samples.

Results

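The step from day 4 to day 5 of differentiation was examined in male C57/Bl6 mouse embryonic stem cells (mESCs), the cells of the inner cell mass kept in culture. Its members are the 10 libraries harvested on those days, 5 on each, of the 20 libraries with values in the deposited table. They form 5 pairs, because each culture series gave 1 library on each day. The series are the nonsilencing control (Nons, 1 series), *Smarca4* knockdown (hairpins Smarca4.4 and Smarca4.6) and *Smarcc1* knockdown (hairpins Smarcc1.6 and Smarcc1.7). A second Nons series was not analysed here.

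By the study's methods all groups were grown and transduced alike. The cells were expanded in 2i with LIF, 2 kinase inhibitors and a cytokine that hold mESCs in the naive state, and were weaned in increments into a serum medium called DME HiHi that has neither. Every series, Nons included, received a hairpin retrovirus on day 2 and puromycin from day 3. The cells were plated when they reached undiluted DME HiHi and were not passaged after that. Day of culture, time in serum, time since that plating, time since transduction and time under puromycin therefore advance together. Their effects cannot be told apart in this step. Whether libraries of the 2 days were prepared together is not stated in the sources used here. An effect of separate preparation could not be told apart from these. A genotype label calls the Smarca4 libraries a Smarcc knockdown, and the titles were followed instead. No label says that the cultures were separate cell lines, so the p-values measure the spread between these 5 series.

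Naive mESCs are held by a network of transcription factors around *Pou5f1*, *Sox2* and *Nanog*, of which *Esrrb*, *Klf4*, *Tfcp2l1* and *Nr0b1* are the parts most tied to the naive state. When the inhibitors are withdrawn the cells pass to a formative state marked by *Fgf5*, *Otx2* and *Dnmt3b*, and later to the germ layers. Smarca4 and Smarcc1 are subunits of the BAF complex, which moves nucleosomes with energy from ATP.

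The hairpins separate the 5 pairs, so the guide strands of the 4 targeting ones are shown here with bases 2 to 8, the seed, in capitals.
Smarca4.4: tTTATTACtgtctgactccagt
Smarca4.6: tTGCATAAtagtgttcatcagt
Smarcc1.6: tGTAACTGcttcttcatcctgc
Smarcc1.7: tTGCTCATcttcttccttctga
All 22 bases of each guide had a complementary site in transcripts of its target gene and of no other gene in GENCODE M21. In GRCm38 (mm10) the site of Smarca4.4 is at chr9:21703327-21703348, in the 3' UTR in exon 34 of 34 of *Smarca4*, and that of Smarca4.6 at chr9:21670504-21670525, in the coding part of exon 22. The sites in *Smarcc1* are coding, in exon 13 of 29 at chr9:110177472-110177493 for Smarcc1.6 and in exon 11 at chr9:110173911-110173932 for Smarcc1.7. All 4 lie on the plus strand. The Nons guide had no such site.

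The targets were lower where the labels say so on both days. *Smarca4* stood at 222 rpm (reads of a gene scaled to a common library total) in Nons on day 4, and at 56 rpm in Smarca4.4 and 62.9 rpm in Smarca4.6. On day 5 it stood at 151 rpm in Nons, 49.5 rpm in Smarca4.4 and 36.3 rpm in Smarca4.6, or 32.8% and 24.1% of Nons. *Smarcc1* stood on day 4 at 451 rpm in Nons, 163 rpm in Smarcc1.6 and 192 rpm in Smarcc1.7. On day 5 these values were 260, 61.5 and 109 rpm, or 23.7% and 42% of Nons for the 2 hairpins. Smarcc1.6 also had less *Smarca4* than Nons on day 5, at 90.8 rpm or 60.2% of Nons, against 116% on day 4. Smarcc1.7 had more, at 236 rpm or 156% of Nons on day 5, against 112% on day 4. Both genes were lower on day 5 than on day 4 in all 5 series, with mean log2 changes of -0.95 for *Smarcc1* and -0.62 for *Smarca4* (adjusted p = 0.000199 and 0.0157). The call of *Smarca4* was lost without the Smarca4.6 series (adjusted p = 0.0516) and in the series Nons, Smarca4.4 and Smarcc1.7 alone. It was also lost with the trend on transcript length, described below, removed (-0.34, adjusted p = 0.0548). With the trend on GC content removed as well, *Smarca4* was called.

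Depth was alike but for 1 library. Totals were 18206371 to 27472885 reads on day 4 and 19747429 to 23551166 on day 5 in 4 series, while Smarca4.4 on day 5 had 6829596. The 3 reads taken as distinguishable from none were worth 0.439 rpm in that library and 0.109 to 0.165 rpm in the other 9. A gene's change is the mean over the 5 series of day 5 minus day 4 on the log2 rpm scale, tested with limma on the 13173 genes whose log2 rpm averaged 0 or more over the 10 libraries, and called at an adjusted p under 0.05.

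The step moved a large share of the genes tested. Of 13173 genes 6043 were called, which is 45.9%, with 2764 higher on day 5 (21%) and 3279 lower (24.9%). The excess of falls turned with the scaling: 3180 were higher and 2899 lower with each library centred on its median gene, 2983 and 2920 after quantile normalization, and 3103 and 3008 by limma-voom. Among them 964 rose and 916 fell by more than 1 on the log2 scale. All 5 series changed in the same direction in 6530 genes, upwards in 2955 and downwards in 3575. The median change of all genes tested was -0.05.

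The direction of change moved with transcript length. In the shortest of 5 equal groups by transcript length (median 1310 bases, counting the longest transcript of a gene) the median change was 0.26, with 34.8% of genes called higher and 12% lower. In the longest group (median 6757 bases) it was -0.34, with 10.8% higher and 40% lower. Across 12956 genes, which are not independent replicates, the Spearman correlation between change and length was -0.38 in Smarca4.6 and in Smarcc1.6 and between -0.16 and -0.10 in the other 3 series. The correlation with GC content took both signs, from -0.27 in Smarcc1.6 to 0.33 in Smarca4.6. The part of length and GC content in any single change was not tested. A fit with both trends taken out of each library was added after seeing the data, and called 7110 of 12956 genes, 3468 higher and 3642 lower, of which 5360 were also called before. It is named below as the fit without trends. It called 26.8% of genes higher and 28.1% lower. Each gene list below is given as counts to be read against 21% higher and 24.9% lower over all genes, and a count without trends, where it differs, against these other shares.

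**Figure D1:**
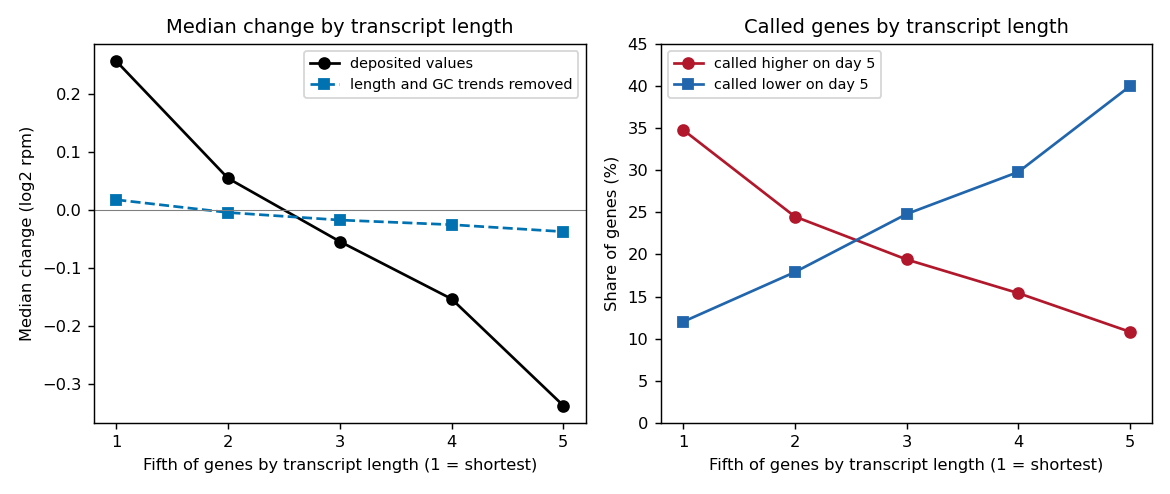
Median change from day 4 to day 5 (left, log2 rpm) and share of genes called higher or lower on day 5 (right, percent) in 5 equal groups of genes by transcript length. With the deposited values the median falls from 0.26 in the shortest group to -0.34 in the longest, and without the trends it lies between -0.04 and 0.02.

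Naive pluripotency factors fell together. Of 17 tested, 13 fell and 1 rose, with a median change of -1.74, beside 24.9% lower and a median of -0.05 over all genes. Without trends 16 fell and 1 rose. *Esrrb*, an orphan nuclear receptor, stood on day 4 at 48.4, 99.1, 85.5, 146 and 122 rpm in Nons, Smarca4.4, Smarca4.6, Smarcc1.6 and Smarcc1.7, and on day 5 at 9.12, 19.3, 19.5, 18.2 and 24.7 rpm. The days did not overlap, and Nons was the lowest library on both. The fitted change was -2.44 ± 0.15 (SE), a 5.43-fold fall (adjusted p = 7.77e-07). *Nr0b1*, which encodes the repressor Dax1, fell from 63.6 to 89.1 rpm on day 4 to 5.18 to 10.1 rpm on day 5, an 11-fold fall (-3.46 ± 0.16, adjusted p = 9.29e-08).

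*Klf4*, a Krüppel-like factor, stood in the same order of series at 7.32, 16.7, 16.5, 33.5 and 23.2 rpm on day 4 and at 2.63, 1.9, 4.03, 4.71 and 5.74 rpm on day 5 (-2.30 ± 0.23). Both days kept Nons among the 2 lowest libraries, and every day 5 value lay below every day 4 value. *Tfcp2l1* fell by 2.00, from 27.6 rpm in Nons and 56.4 to 80.8 rpm in the knockdown series to 9.52 to 19.3 rpm in all 5. The other falls were *Nr5a2* (-2.29), a nuclear receptor, *Prdm14* (-2.04), *Tbx3* (-1.92), *Tet2* (-1.91), *Klf5* (-1.74), *Tcl1* (-1.54), *Gbx2* (-1.46), *Klf2* (-1.08) and *Zfp42* (-0.38). The call of *Zfp42*, also known as Rex1, was lost without Nons, Smarca4.4, Smarca4.6 or Smarcc1.7 (adjusted p = 0.109, 0.212, 0.0614 and 0.112).

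*Nanog* did not pass the test. It stood at 90.1, 164, 207, 284 and 221 rpm on day 4 and at 95.8, 156, 188, 208 and 140 rpm on day 5, with Nons lowest on both days and the days overlapping (-0.24 ± 0.14, adjusted p = 0.166). *Fbxo15* (-0.36) and *Sox15* (-0.31) were not called either, and all 3 were called lower in the fit without trends (adjusted p = 0.0135, 0.00611 and 0.00561). *Fbxo15* was also called without Smarcc1.6 (adjusted p = 0.0138) and *Sox15* without Smarca4.6 (adjusted p = 0.0243). *Dppa3*, a maternal factor that protects methylation and marks a part of naive cells, rose in all 5 series, from 8.04 to 14.4 rpm to 20 to 74.6 rpm (1.72 ± 0.19).

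**Figure D2:**
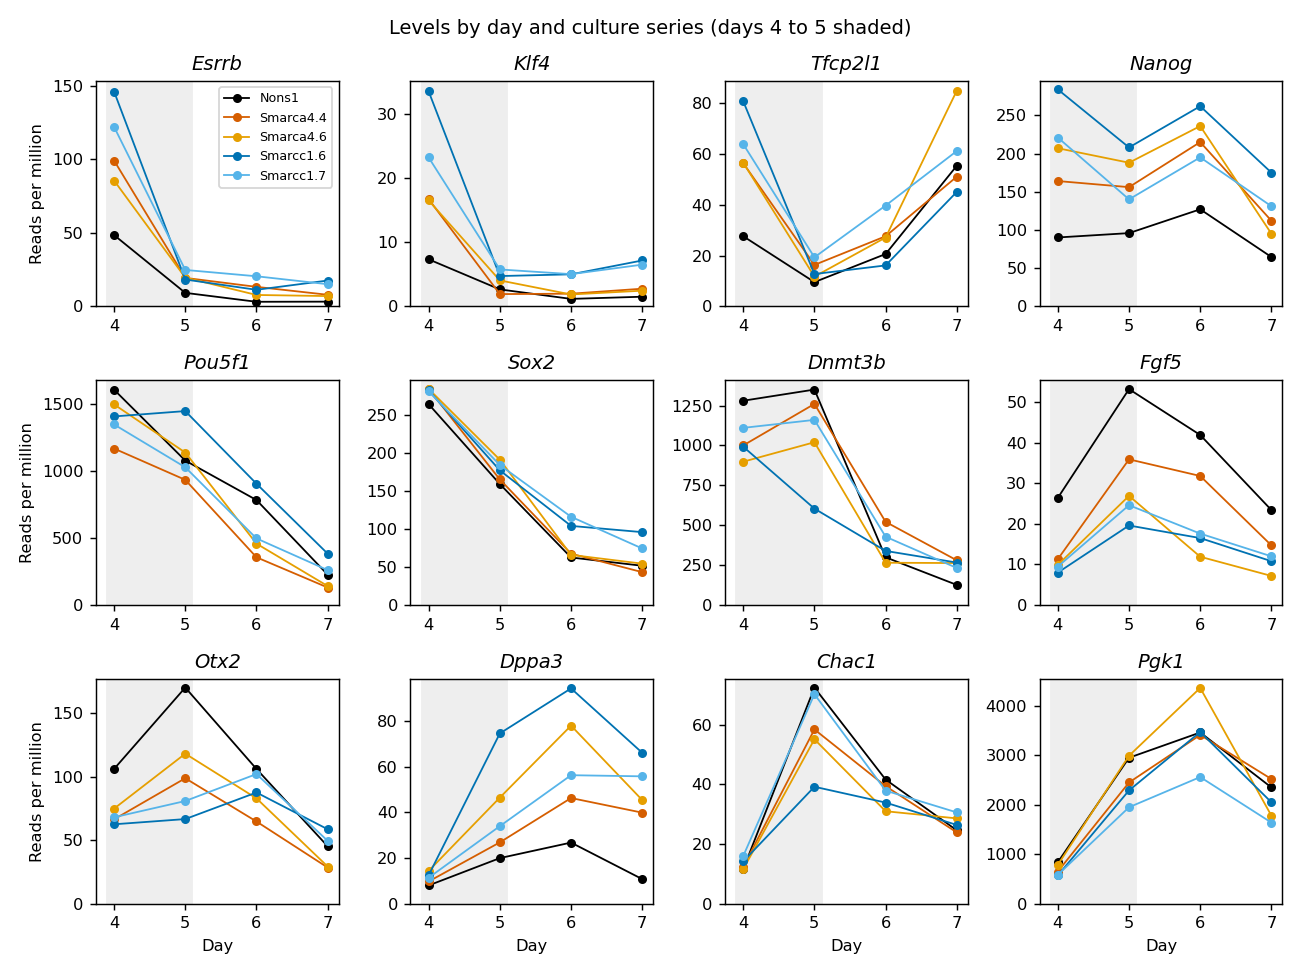
Level (rpm) of 12 genes on days 4 to 7 in the 5 culture series, with the step from day 4 to day 5 shaded. *Esrrb*, *Klf4* and *Tfcp2l1* drop in all 5 series between days 4 and 5, *Nanog* stays in an overlapping range, and *Fgf5*, *Chac1* and *Pgk1* rise in all 5 series.

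Of 13 core and general pluripotency genes 9 fell and 2 rose (median -0.67), and 11 fell and 0 rose without trends. *Sox2* stood between 264 and 284 rpm on day 4 and between 159 and 191 rpm on day 5, a 1.59-fold fall with no overlap (-0.67 ± 0.12, adjusted p = 0.000664). *Pou5f1* (Oct4) stood at 1610, 1170, 1500, 1410 and 1350 rpm on day 4 and at 1080, 936, 1140, 1450 and 1030 rpm on day 5. It was lower on day 5 in 4 of 5 series, Smarcc1.6 being the exception, and did not pass (-0.32 ± 0.13, adjusted p = 0.0576). It was called lower without Smarcc1.6 (-0.42, adjusted p = 0.0103) and without trends (-0.49, adjusted p = 0.0126). *Tdh*, the threonine dehydrogenase that mouse ESCs rely on, fell by 2.52 on the log2 scale and *Zfp57*, which guards imprints, fell 3.04-fold. *Dppa5a* (0.61) and *Tdgf1* (0.36), the Nodal co-receptor, were the 2 that rose, and neither was called without trends (adjusted p = 0.164 and 0.108). *Dppa5a* also lost its call without Smarca4.6 or Smarcc1.6 (adjusted p = 0.0908 and 0.0546). *Tdgf1* lost its call without any series but Smarcc1.7 (adjusted p = 0.0772, 0.134, 0.061 and 0.0787 without Nons, Smarca4.4, Smarca4.6 and Smarcc1.6).

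Formative genes did not move as a group. Of 15 tested 4 rose and 3 fell (median 0.06), and 5 and 2 did without trends. *Fgf5*, a growth factor of the postimplantation epiblast, stood at 26.4, 11.3, 9.89, 7.99 and 9.47 rpm on day 4 and at 53.2, 35.9, 26.9, 19.6 and 24.6 rpm on day 5. It rose 2.56-fold in the fit (1.36 ± 0.15, adjusted p = 2.9e-05) and in all 5 series, and the days overlapped only because Nons on day 4 stood above 2 of the knockdown libraries of day 5. *Krt18* (2.05), *Sox3* (1.01) and *Otx2* (0.45) also rose. *Otx2* lost its call without Nons or Smarca4.4 (adjusted p = 0.0818 and 0.0755). *Lef1* (-1.93), a nuclear partner of β-catenin, *Cdh2* (-0.91), N-cadherin, and the methyltransferase gene *Dnmt3a* (-0.71) fell. *Cdh2* was not called without Smarcc1.7 (adjusted p = 0.055), nor *Dnmt3a* without trends (-0.23, adjusted p = 0.0831). *Dnmt3b* stood at 1280, 1000, 898, 992 and 1110 rpm on day 4 and 1350, 1260, 1020, 604 and 1160 rpm on day 5, higher in 4 series and lower in Smarcc1.6 (-0.01 ± 0.15, adjusted p = 0.951).

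The single largest rises were not pluripotency genes. *Grin1*, a subunit of the NMDA glutamate receptor, stood between 0.317 and 1.04 rpm on day 4 and between 4.25 and 17.4 rpm on day 5 (4.11 ± 0.30). *Mal2*, a membrane protein of epithelial transport, went from 0.362 to 0.801 rpm to 5.41 to 18.4 rpm (4.10 ± 0.24). Both were low on day 4 and did not overlap between the days. The next were *Cmtm8* (3.71), *Psmb8* (3.54), a subunit of the immunoproteasome, *Vldlr* (3.49), a lipoprotein receptor, *Kif1a* (3.42), a kinesin of axons, *Dennd2d* (3.39), *Sncb* (3.30), β-synuclein, *Cldn7* (3.25), a tight junction claudin, *Mgst1* (3.24), a glutathione transferase, *Stc1* (3.23), a secreted glycoprotein, and *Tubb4a* (3.16), a tubulin. *Kif1a* rose by 2.13 in Smarcc1.6 and by 3.64 to 3.82 in the other 4 series. The order of these rises depends on the low day 4 values. With 1 rpm added to every value before the log, *Grin1* rose by 2.73, *Mal2* by 2.72 and *Cmtm8* by 2.30. *Vldlr* (3.14), *Kif1a* (2.98) and *Cldn7* (2.91) then stood above them.

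The largest falls reached similar sizes. *Notum*, a secreted lipase that inactivates Wnt proteins and is itself a Wnt target, fell from 9.11 to 14.3 rpm to 0.427 to 0.658 rpm (-4.31 ± 0.23). *Meox1*, a homeobox gene of the somites, stood at 2.18, 3.88, 4.94, 7.49 and 7.75 rpm on day 4 and at 0.405, 0, 0.255, 0.416 and 0.19 rpm on day 5, where the 3-read limit of Smarca4.4 was 0.439 rpm. *Ttn*, the giant muscle gene titin, fell from 139 to 205 rpm to 5.1 to 15.7 rpm. Its change was -3.93 ± 0.18, and -2.58 in the fit without trends, its transcript being among the longest known. *Kdr*, the VEGF receptor of early mesoderm, fell from 3.35 to 5.57 rpm to 0.17 to 0.664 rpm (-3.87 ± 0.31). The others were *Glrx* (-3.91), glutaredoxin, *Msln* (-3.76), mesothelin, *Nr0b1*, *Pramel7* (-3.45), a naive-state gene of a large family, *Robo4* (-3.41), an endothelial guidance receptor, *Ryr3* (-3.14), a calcium release channel, *Pdgfc* (-3.13), a growth factor, and *Dazl* (-3.11), an RNA-binding protein of germ cells. With 1 rpm added, *Meox1* (-2.23), *Glrx* (-2.12), *Kdr* (-2.05) and *Pramel7* (-1.98) fell by less than *Ttn* (-3.80) and *Nr0b1* (-3.28).

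**Figure D3:**
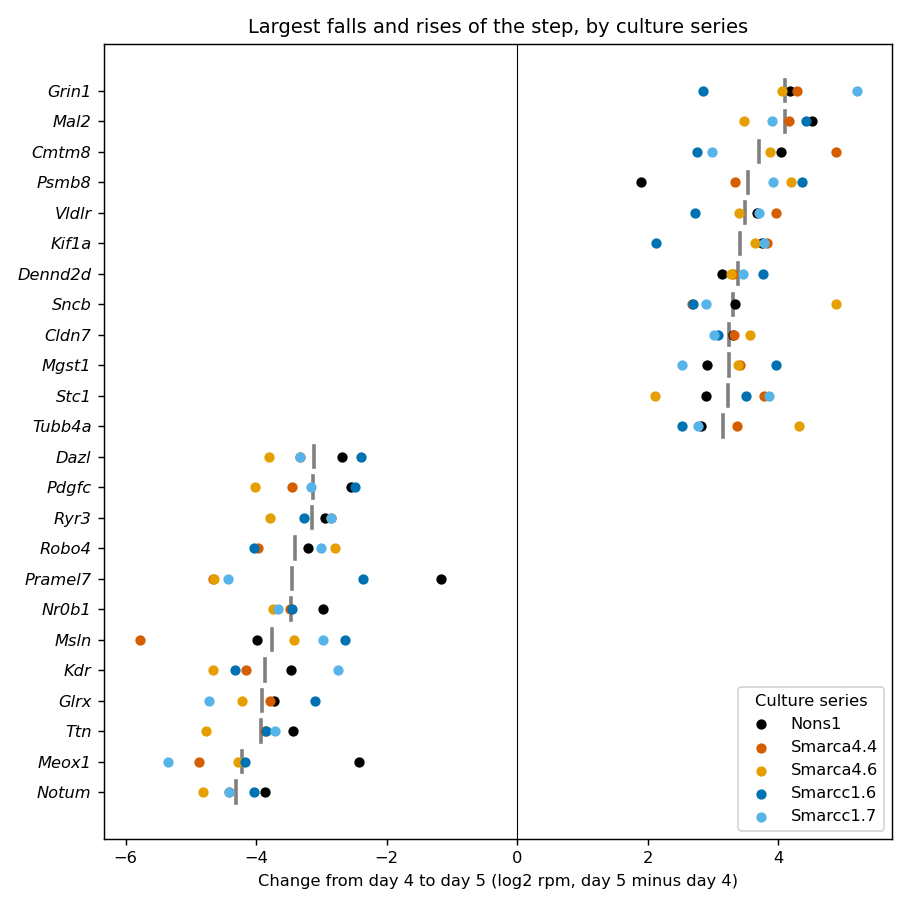
Change from day 4 to day 5 (log2 rpm) in each of the 5 culture series (coloured points) and their mean (grey bar) for the 12 largest rises and 12 largest falls by the naming rule. The rule asks for the same direction in all 5 series, so the points of a gene lie on the same side of 0 by choice. They spread most for *Pramel7*, *Meox1* and *Msln*.

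Genes of the ATF4 stress response rose. ATF4 is a transcription factor that accumulates when amino acids are short or the endoplasmic reticulum is stressed, and drives genes of amino acid supply. Of 19 tested 14 rose and 1 fell (median 1.07), against 21% higher over all genes, and 14 and 2 did without trends. *Chac1*, which degrades glutathione, stood at 11.6, 12.4, 11.6, 14.2 and 16 rpm on day 4 and at 72.4, 58.4, 55.1, 39.2 and 70.2 rpm on day 5, a 4.42-fold rise with no overlap (2.14 ± 0.17, adjusted p = 2.8e-06). *Ddit4* (Redd1), an inhibitor of mTORC1, rose by 1.87 to 654 to 996 rpm, from 174 to 305 rpm. *Vldlr* stood between 2.42 and 4.66 rpm on day 4 and between 20 and 59.5 rpm on day 5.

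The factors themselves rose too, *Atf3* by 2.12, *Cebpb* by 1.84, *Ddit3* (Chop) by 1.68 and *Atf4* by 0.89. So did the genes of serine and asparagine synthesis, *Psat1* (1.54), *Phgdh* (1.07) and *Asns* (1.00), the pseudokinase *Trib3* (1.56), *Nupr1* (1.37), the cystine transporter *Slc7a11* (0.72) and the mitochondrial folate enzyme *Mthfd2* (0.66). *Slc7a11* was not called without Nons or Smarca4.4 (adjusted p = 0.118 and 0.0548). *Sesn2*, a leucine sensor, was the member of the list that fell (-0.72). In Smarcc1.6 it fell by 1.58, and in the other series by 0.24 to 0.62.

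The promoters of this list were searched for the letters TGATGNAA, the core of the composite site that ATF4 binds with C/EBP proteins, on both strands of the window from 250 bases before to 50 bases after the RefSeq start (GRCm38.p6). It was found for 7 of the 18 members with a promoter, against 4.0% of 32851 promoters. The members were chosen as genes of the ATF4 response, so an excess over all promoters is no result of these data. Of the 18, 14 were called higher, all 7 with the match among them. A member counted if any of its promoters matched, here and below, while the share is of single promoters. A match is a string of letters and not a site shown to be bound. Those of 3 members are printed because they hold the match, which is in capitals (TTGCATCA is the same match on the other strand).
Vldlr, chr19:27216770-27217069, plus strand: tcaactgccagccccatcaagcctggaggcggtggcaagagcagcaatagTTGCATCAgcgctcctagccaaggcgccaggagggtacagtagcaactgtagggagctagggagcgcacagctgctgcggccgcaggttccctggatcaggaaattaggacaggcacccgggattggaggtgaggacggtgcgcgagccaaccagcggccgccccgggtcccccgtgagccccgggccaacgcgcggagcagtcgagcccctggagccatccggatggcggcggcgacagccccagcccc
Chac1, chr2:119350992-119351291, plus strand: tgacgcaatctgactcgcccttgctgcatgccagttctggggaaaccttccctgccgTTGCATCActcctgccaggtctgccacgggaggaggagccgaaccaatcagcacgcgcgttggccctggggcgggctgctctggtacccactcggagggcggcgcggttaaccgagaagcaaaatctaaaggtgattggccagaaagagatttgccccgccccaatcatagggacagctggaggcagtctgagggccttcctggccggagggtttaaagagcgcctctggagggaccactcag
Asns, chr6:7693160-7693459, minus strand: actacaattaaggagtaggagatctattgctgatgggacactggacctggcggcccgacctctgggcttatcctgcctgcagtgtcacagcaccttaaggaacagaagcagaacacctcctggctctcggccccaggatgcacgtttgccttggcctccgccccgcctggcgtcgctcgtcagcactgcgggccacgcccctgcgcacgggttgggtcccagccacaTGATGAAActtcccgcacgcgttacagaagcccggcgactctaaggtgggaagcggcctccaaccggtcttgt
The other 4 members with a match were *Atf3*, *Nupr1*, *Slc7a11* and *Trib3*.

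Genes of glycolysis and of the response to low oxygen also rose. Of 24 tested 17 rose and 2 fell (median 0.72), against 21% higher and 24.9% lower over all genes. *Pgk1*, phosphoglycerate kinase, stood at 839, 652, 787, 572 and 585 rpm on day 4 and at 2950, 2450, 2990, 2290 and 1950 rpm on day 5, a 3.67-fold rise with no overlap (1.88 ± 0.12, adjusted p = 9.54e-07). *Bnip3*, a mitophagy receptor, rose by 1.90, by 2.76 in Smarcc1.6 and by 1.51 to 1.86 in the other series. *Egln1* (1.61), which encodes the oxygen sensor that marks HIF for decay, *Vegfa* (1.57) and *Ldha* (0.85) rose as well. *Hk2* (-0.50) and *Pfkp* (-0.48), hexokinase and phosphofructokinase isoforms, fell, and neither was called without trends, where the count was 20 higher and 0 lower. *Hk2* also lost its call without Nons, Smarca4.6 or Smarcc1.6 (adjusted p = 0.0891, 0.0648 and 0.095), and *Pfkp* without Nons (adjusted p = 0.0689).

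The letters ACGTG, the core bound by HIF, were in the promoter window of 15 of the 21 members with a promoter and of 9 of the 14 called higher among them, against 19.6% of all promoters. These members too were chosen as genes of a known response, so the excess over all promoters is no result of these data. The match was no more common among those called higher than among all members with a promoter. The promoter window of *Pgk1* holds the letters on either strand.
Pgk1, chrX:106186850-106187149, plus strand: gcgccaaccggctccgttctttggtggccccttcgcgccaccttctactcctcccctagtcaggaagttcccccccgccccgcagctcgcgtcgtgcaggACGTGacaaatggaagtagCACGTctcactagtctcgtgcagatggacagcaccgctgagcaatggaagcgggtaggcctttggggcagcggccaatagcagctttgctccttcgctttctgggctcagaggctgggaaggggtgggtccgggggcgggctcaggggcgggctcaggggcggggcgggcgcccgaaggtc

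Cholesterol synthesis and oxidative phosphorylation rose by smaller amounts. Of 20 cholesterol genes 13 rose and 0 fell (median 0.50), beside 16 and 0 without trends. *Fdps*, which makes farnesyl diphosphate, stood at 96.4, 98.3, 97.9, 81.9 and 85.6 rpm on day 4 and at 179, 197, 288, 208 and 175 rpm on day 5 (1.17 ± 0.14, adjusted p = 3.84e-05). *Pmvk* (1.20) and *Sc4mol* (1.17) rose by the same order, and *Insig1* (0.68), a feedback regulator, by less. The letters TCACNCCAC, a sterol element, were in the promoter window of 1 of 12 members with one, against 1.2% of all promoters. That member was *Hmgcs1*, which was not called, and 0 of the 8 with a promoter that were called higher held it. Of 22 genes of oxidative phosphorylation 12 rose and 0 fell (median 0.40), and 9 rose without trends (median 0.22). These are short transcripts, with a median of 1804 bases. *Ndufa1* (0.90) and *Uqcrh* (0.76), subunits of complexes I and III, led them.

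Regulators of DNA methylation fell. Of 12 tested 7 fell and 0 rose (median -0.61), against 24.9% lower over all genes, and 8 fell without trends. *Tet2* and *Tet1* (-1.47), which oxidise methylcytosine, *Dnmt3l* (-1.40), a cofactor of de novo methylation, *Uhrf1* (-1.32), the partner of maintenance methylation, and *Dnmt1* (-1.13), its enzyme, all fell in 5 of 5 series, with *Dnmt3a* as above. *Dnmt1* stood at 271, 326, 286, 356 and 335 rpm on day 4 and at 133, 178, 147, 79.6 and 213 rpm on day 5, with no overlap and with Smarcc1.6 lowest. *Gadd45b* (-0.50) was called with all series but not without Nons, Smarca4.4, Smarcc1.6 or Smarcc1.7 (adjusted p = 0.111, 0.064, 0.0777 and 0.108).

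Polycomb genes fell in 10 of 20 and rose in 2 (median -0.40), and in 12 and 3 without trends. *Jarid2* (-1.27) and *Suz12* (-1.07), subunits of the H3K27 methyltransferase complex PRC2, fell most clearly. *Pcgf1* (1.39), of PRC1, rose, as did *Ezh1* (0.46), whose call was lost without any series but Smarcc1.6 (adjusted p = 0.0865, 0.14, 0.164 and 0.119 without Nons, Smarca4.4, Smarca4.6 and Smarcc1.7). Of 22 BAF subunits 7 fell and 2 rose (median -0.21), and in the knockdown series 2 of the 22 are the targets. Beside *Smarcc1*, *Arid1a* (-0.88) fell, and *Smarca2* (1.14), the alternative ATPase to *Smarca4*, and *Phf10* (0.93) rose. Without trends the BAF counts were 9 lower and 5 higher.

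Signalling genes moved unevenly. FGF and ERK feedback genes fell in 12 of 20 and rose in 4 (median -0.62), and in 11 and 5 without trends. *Spry4* (-1.49) and *Dusp4* (-1.51), inhibitors induced by ERK, fell, while *Fgf5*, *Fgf8* (1.25) and the early gene *Ier3* (1.76) rose. Of 13 Wnt genes tested 6 fell and 1 rose (median -0.55), and 7 and 1 did without trends. *Notum*, *Axin2* (-2.16) and *Lef1*, all induced by β-catenin, fell and *Nkd1* (1.88), another such gene, rose. *Axin2* fell by 3.58 in Smarcc1.6 and by 1.55 to 2.09 in the others.

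In the LIF and Stat3 pathway 4 of 14 fell and 1 rose (median -0.36), and 6 and 2 did without trends. The receptor gene *Lifr* fell by 2.48 and the target *Gbx2* by 1.46, and *Cish* (1.40), a feedback inhibitor, rose. Of 15 Nodal pathway genes 5 rose and 3 fell (median -0.08), and 6 and 3 did without trends. *Nodal* itself (-0.84) and the convertase *Pcsk6* (-1.91) fell, and the targets *Lefty1* (1.28) and *Lefty2* (0.82), both Nodal inhibitors, rose. Of 14 BMP genes 3 rose, a share near the 21% of all genes, and 0 fell (median -0.01), with 5 higher without trends. *Bmp7* (1.50) and the pseudoreceptor *Bambi* (0.64) were among them. In the retinoic acid pathway 4 of 11 rose and 3 fell (median 0.57), and 5 and 3 did without trends. The receptors *Rarg* (-1.31) and *Rara* (-0.91) fell, and *Stra8* (2.44) and the reductase *Dhrs3* (1.68) rose. *Stra8* stood at 12.8, 7.09, 10.1, 28 and 25.3 rpm on day 4 and at 19, 49.8, 69.6, 307 and 150 rpm on day 5, so the rise in Nons was 0.57 and that of the knockdown series 2.57 to 3.45.

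Epithelial genes rose in 6 of 15 and fell in 1 (median 0.36), with 9 higher and 1 lower without trends. The tight junction genes *Cldn7*, *Cldn6* (2.00) and *Ocln* (1.26) and the polarity gene *Crb3* (2.35) rose, and the transcription factor *Grhl2* fell (-1.59). *Cldn7* stood between 2.05 and 4.89 rpm on day 4 and between 17.2 and 58 rpm on day 5. *Cdh1*, E-cadherin, was not called (-0.24, adjusted p = 0.258), at 405 to 497 rpm on day 5 in 4 series and 234 rpm in Smarcc1.6. Mesenchymal genes fell in 7 of 10 tested and rose in 1 (median -0.72), and in 8 and 1 without trends. *Fn1* (-1.82), fibronectin, *Zeb1* (-1.47), a repressor of E-cadherin, and *Vim* (-0.96), vimentin, fell, and *Mmp2* (1.74) rose. Of 16 matrix genes 7 fell and 0 rose (median -0.53), and without trends 6 fell and 1 rose with a median of -0.13. Their transcripts are long, with a median of 6270 bases. *Nid1* fell by 1.90 and *Fn1* as above. Among 15 SRF and YAP targets 4 rose and 4 fell (median -0.21), and 5 and 5 did without trends. *Cnn1* (1.94) and *Tpm2* (1.55), of the contractile apparatus, rose, and *Ctgf* (-1.62) and the actin crosslinker *Flna* (-1.01) fell.

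Germ layer genes were largely below the level tested. Of 18 primitive streak genes 6 were tested, and *T* (Brachyury) and *Mixl1* stood at or below 1.02 rpm in all 10 libraries. *Eomes* (-1.14) and the activin antagonist *Fst* (-1.21) fell and *Lefty2* and *Fgf8* rose, with 2 higher and 3 lower in all. Of 21 mesoderm and cardiac genes 10 were tested, 4 fell and 1 rose. *Kdr* and *Meis1* (-2.83) fell and *Myl7* (1.07) rose. *Hand1* was not called (0.51, adjusted p = 0.215). Of 14 blood and endothelial genes 7 were tested, 2 rose and 0 fell, the former being *Lmo2* (1.93) and *Cd34* (0.83). Of 18 neural genes 10 were tested, 2 rose and 1 fell, and 5 and 2 did without trends. *Nes* (0.78), nestin, and *Neurog3* (0.88) rose and *Tubb3* (-0.72) fell. *Nes* lost its call without Nons or Smarcc1.7 (adjusted p = 0.0564 and 0.0568), and *Neurog3* without Smarca4.6, Smarcc1.6 or Smarcc1.7 (adjusted p = 0.105, 0.0576 and 0.0743). Of 19 Hox and Cdx genes 2 were tested and *Cdx4* fell (-1.29).

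Extraembryonic genes were split. Among 9 primitive and visceral endoderm genes tested of 18, *Dab2* (2.22) and *Amn* (2.03), the endocytic partners of cubilin, rose and *Sparc* (-0.99) and *Col4a1* (-0.77) fell, while *Gata6*, which defines that lineage, stood at 0 to 1.45 rpm and was not tested. Among 12 trophoblast genes and simple keratins tested of 15, 5 rose and 3 fell, and 6 and 3 did without trends. *Krt8* stood between 9.47 and 16.1 rpm on day 4 and between 22.8 and 50.4 rpm on day 5 (1.47 ± 0.16), *Krt18* rose with it, and *Gata3* (-1.94), a trophoblast factor, and *Eomes* fell. The summed level of that list was 121 to 137 rpm on day 4 and 157 to 286 rpm on day 5. Fibroblast markers, a check for cells other than mESCs, were tested in 3 of 10, with *Fbln1* higher (0.54). Its call was lost without any series but Smarcc1.6 (adjusted p = 0.0872, 0.0749, 0.111 and 0.0961 without Nons, Smarca4.4, Smarca4.6 and Smarcc1.7). The summed level of the 10 was 27.1 to 43.1 rpm on day 4 and 23.1 to 64.2 rpm on day 5, and 6 of them stayed under 1 rpm in every library. In bulk RNA a change in the number of cells of a type and a change in RNA per cell cannot be told apart.

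Germline genes fell in 8 of 16 and rose in 5 (median -0.45). *Dazl* stood between 336 and 616 rpm on day 4 and between 37.9 and 117 rpm on day 5, and *Piwil2* (-1.36), of the piRNA pathway, fell, while *Sycp3* (2.14), of the synaptonemal complex, and *Dppa3* rose. Of 9 genes of the 2-cell-like state tested 5 rose and 0 fell (median 0.61). The median of the list was -0.18 in Nons and 0.38 to 1.35 in the knockdown series, highest in Smarca4.4, whose day 5 library is shallow. Among those that rose were *Dub1* (0.88) and *Tcstv1* (0.90). Both lost their call without Smarca4.4 (adjusted p = 0.0725 and 0.0567), and reads of these families of near-identical copies may be split between members. Of 18 imprinted genes 6 fell and 5 rose (median -0.13). *Peg3* stood between 755 and 1240 rpm on day 4 and between 139 and 384 rpm on day 5 (-1.92 ± 0.16) and *Cdkn1c*, a growth inhibitor, fell by 0.95, while *Phlda2* (1.56) and *Sgce* (1.15) rose.

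Lists of cell cycle genes had small median changes, while some single members moved further. Of 23 DNA replication genes 7 fell and 2 rose (median -0.16), or 9 and 0 without trends, *Mcm2* (-0.80) and *Cdc6* (-0.70), of origin licensing, falling. *Gins1* and *Orc6* (0.44 each) rose, and neither was called without trends (adjusted p = 0.199 and 0.103) or without Smarca4.4 (adjusted p = 0.0659 and 0.0688). Of 20 mitosis genes 5 rose and 4 fell (median -0.06), or 5 and 2 without trends, among them *Bub1* (0.59) and *Birc5* (0.51) higher and *Kif20a* (-0.54) and *Bub1b* (-0.51) lower. *Bub1b* fell by 1.23 in Smarcc1.6 and by 0.22 to 0.45 in the other series. Of 17 regulators of G1 6 fell and 1 rose (median -0.14), *Mycn* (-1.43) falling and *Cdkn1b* (1.05), the inhibitor p27, rising, with 8 lower and 4 higher without trends. Of 19 p53 targets 7 fell and 1 rose (median -0.28), and 10 and 2 did without trends. *Trp53* itself fell by 1.16 and the target *Ei24* by 1.00, while *Gdf15* (1.04) rose. Of 10 interferon response genes tested 3 rose and 2 fell (median 0.17), or 5 and 3 without trends, with *Oasl2* (2.06) and *B2m* (1.22) higher and the RNA sensor *Ddx58* (-1.88) and *Oas1a* (-1.30) lower. *Oasl2* rose by 0.53 in Nons and by 2.19 to 2.75 in the knockdown series.

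**Figure D4:**
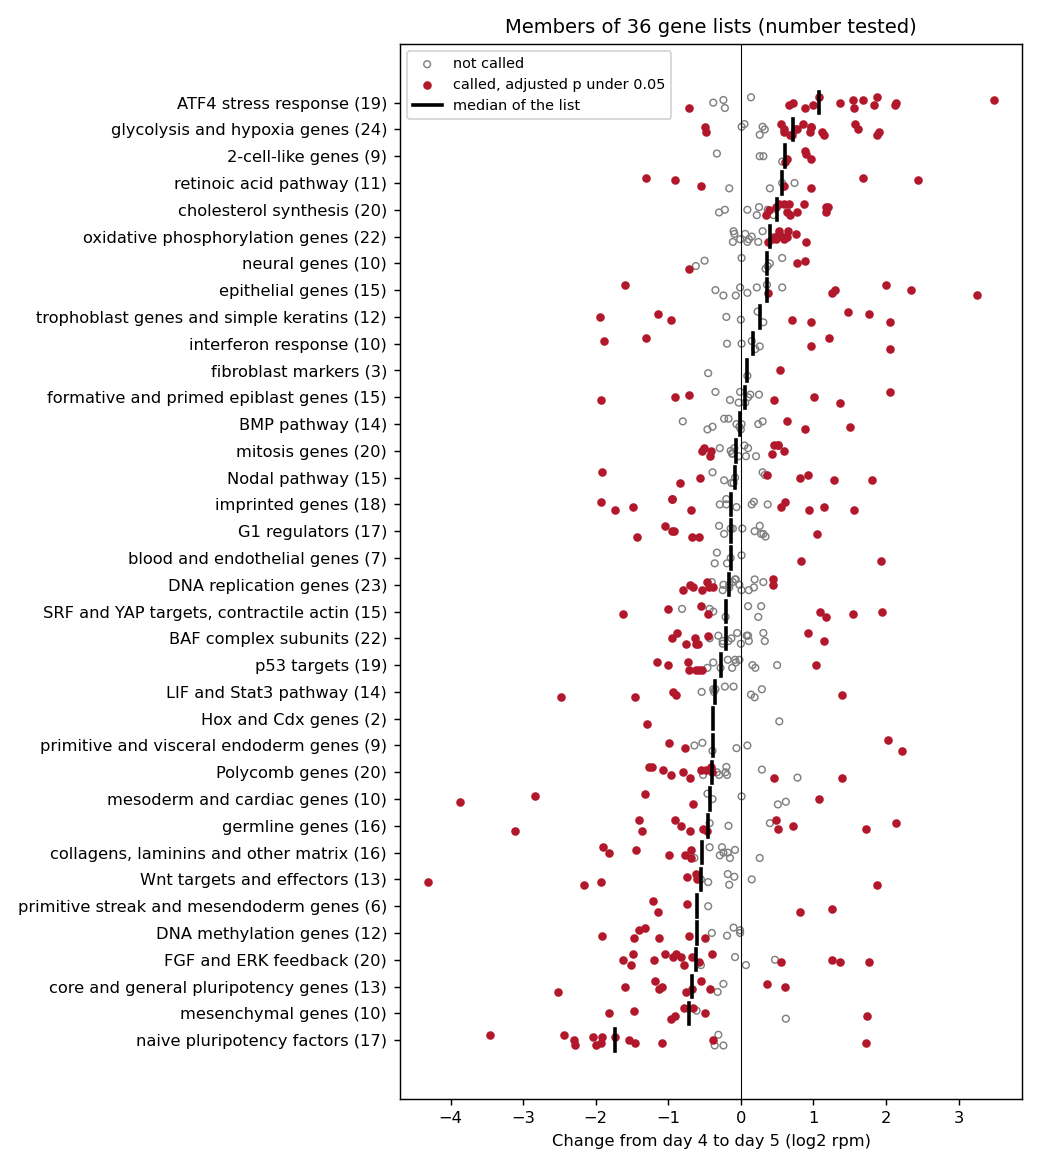
Change from day 4 to day 5 (log2 rpm) of each tested member of 36 gene lists, ordered by the list's median (black bar), with called genes filled. Naive pluripotency factors lie lowest with a median of -1.74 and ATF4 genes highest with 1.07.

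The step was set against the later ones in a fit of all 20 libraries and 13296 genes, in which it called 6946 genes, against 5807 from day 5 to 6 and 5725 from day 6 to 7. Neighbouring steps share libraries and are not independent, while the step from day 6 to 7 shares no library with the first. A direct test found 7441 genes (56%) whose change from day 4 to 5 differed from that from day 6 to 7, 3144 more positive in the earlier step and 4297 more negative. With each library centred on its median gene the split was 4241 and 3161. The same test against the step from day 5 to 6 found 3070 genes (23.1%), 1532 more positive and 1538 more negative, or 1893 and 1283 of 3176 after centring. Without Smarca4.4 it found 1966 and without Smarcc1.7 1985. The Spearman correlation between change and transcript length was 0.36, 0.45 and 0.46 from day 6 to 7 in Nons, Smarca4.6 and Smarcc1.6, the opposite sign to the earlier step. In the fit without trends the counts were 7389 and 3902.

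*Grin1*, *Gchfr*, *Mgst1*, *Mal2* and *Gnmt* differed most from the step of day 6 to 7 in the positive direction, by 4.19 to 4.79. *Grin1* rose by 4.11, changed by 0.04 from day 5 to 6 and by -0.68 from day 6 to 7, neither called. *Gchfr*, the regulator of GTP cyclohydrolase, rose by 2.53 and then fell by 0.98 and 1.82. *Ahnak*, a giant scaffold protein, stood between 47.6 and 79.1 rpm on day 4 and between 4.71 and 13.2 rpm on day 5 (-2.95), and rose by 2.79 and 1.50 in the later steps. With *Gprc5a*, *Nrp2*, *Rusc2* and *Epha4* it differed by -4.14 to -4.45, all 5 lower in the first step and higher in the last. Against the step of day 5 to 6, *Vldlr* (3.33), the chemokine *Cxcl12* (3.32) and the metallothionein *Mt3* (3.11) stood out with *Grin1* and *Gchfr* in the positive direction. *Acta2*, *Mme*, *Thbs1* and *Cyr61* stood out with *Ahnak* in the other, by -4.51 to -5.73. *Acta2*, smooth muscle actin, was at 0.425 to 1.67 rpm on days 4 and 5 and rose by 4.96 afterwards. *Thbs1* (-0.81, adjusted p = 0.0505) and *Cyr61* (-0.38, adjusted p = 0.0983) were not called between days 4 and 5. *Thbs1* was called lower in 9 of 18 alternatives, among them those without Nons (-1.06, adjusted p = 0.0279) or Smarca4.4 (-0.97, adjusted p = 0.0267). *Cyr61* was called lower without trends (adjusted p = 0.0194).

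**Figure D5:**
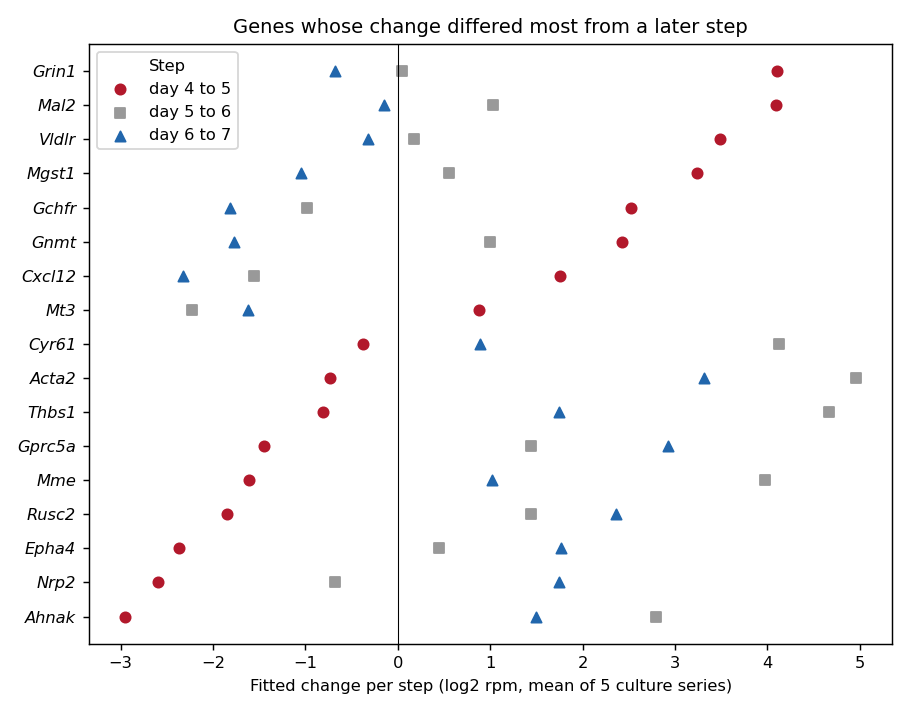
Fitted change (log2 rpm, mean of 5 series) in each of the 3 steps for the 17 genes that differed most between the first step and a later one. *Grin1* and *Mal2* rise by more than 4 in the first step, and *Acta2*, *Thbs1* and *Cyr61* rise by more than 4 between days 5 and 6.

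Members of the gene lists are counted here against all genes. Of these 23.6% were more positive in the first step than from day 6 to 7 and 32.3% more negative. Counts without trends are to be read against 3639 genes more positive and 3750 more negative of 13079 in that fit. In the naive list, 10 of 16 members changed more negatively from day 4 to 5 than from day 6 to 7 and 2 more positively, with medians of -1.64, -0.52 and 0.09 over the 3 steps. Without trends 12 were more negative and 2 more positive. In the ATF4 list 14 of 19 were more positive in the first step and 1 more negative (medians 1.07, -0.09 and -0.20), and 16 and 1 without trends. In the glycolysis list 15 of 24 and in oxidative phosphorylation 17 of 22 were more positive and 0 more negative. Without trends these counts were 20 and 0 for glycolysis and 18 and 1 for oxidative phosphorylation. Of 18 matrix genes 16 were more negative in the first step and 0 more positive, and 14 and 0 without trends.

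The step was also compared between the groups. The test of Smarcc1 against Smarca4 knockdown called 0 of 13296 genes (0%), with 561 at an unadjusted p under 0.05. Against the single Nons series, Smarcc1 knockdown differed in 0 genes (390 unadjusted) and Smarca4 knockdown in 0 (472 unadjusted), all by limma. All 6 residual degrees of freedom rest on the 2 hairpin pairs. The Nons arm is 1 series, is assumed to vary like the hairpin series, and has no replicate check of its own. No interval was computed for the size of difference these tests could have missed. Without Smarca4.4 the first test called 7 genes and without Smarca4.6 1.

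The naive list had a median change below 0 in every series, -1.58 in Nons, -1.46 and -1.39 in the Smarca4 series and -2.12 and -1.47 in the Smarcc1 series. The ATF4 list had one above 0 in every series, 1.52 in Nons and 0.75 to 1.23 in the others.

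As a measure over all 25965 entries, the Euclidean distance on log2 rpm from day 4 to day 5 was 151.7 in Nons, 212.2 in Smarca4.4, 169.3 in Smarca4.6, 160.3 in Smarcc1.6 and 145 in Smarcc1.7, a mean of 167.7 ± 26.5 (SD, n = 5). Smarca4.4 was the highest, and its day 5 library is the shallow one. With a common lowest value in all libraries its distance was 123.6, within the range of 117.4 to 140.3 of the others. Distances from day 5 to 6 were 151.4 ± 17.3 and from day 6 to 7 118.6 ± 12.7. The shallow library also enters the distance from day 5 to 6, which was 180.4 in Smarca4.4. No distance with a common lowest value is given for these later steps, so the sizes of the steps are not ranked here.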

How the data were processed

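Single-end RNA-seq (TruSeq, NextSeq500) was used. Per the study's methods, reads were cleaned with trim_galore and mapped to mm10 with tophat or hisat2, and the authors deposited log2 rpm per gene from SeqMonk; the labels' processing notes name bcl2fastq, HISAT2 and mm10. Whether strand was used is not given in the sources used here, so overlapping and antisense genes are uncertain. The lowest value of each library equals 0.9 of a read, from which whole reads and totals were recovered: 100% of values below 1000 reads were whole within 0.02. Totals count reads, so precision given by depth covers counting error only.

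Changes were fitted with limma 3.58.1 (R 4.3.3, trend) on the 10 libraries, with culture series as a block (4 residual degrees of freedom), on genes averaging 0 log2 rpm or more. P-values were Benjamini-Hochberg adjusted over all genes tested, threshold 0.05. Steps and knockdowns were compared on 20 libraries (12 and 6 degrees of freedom). Series were taken to pair the days. Deviations from the day means correlated within series at 0.109 to 0.39, over 0.1 in all 5 pairs, the level set for pairing. In 2 series the correlation with another series was higher: Smarca4.6 (0.156 with itself, 0.251 with another) and Smarcc1.6 (0.109 and 0.276). The difference between the 2 hairpins of a target correlated between the days at 0.254 for Smarca4 and 0.061 for Smarcc1, the latter under 0.1.

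Named genes were, by rule, the 12 largest rises and falls past the threshold with the same direction in all 5 series and a mean of at least 2 log2 rpm on the higher day (predicted genes left out), up to 2 called members per list and direction, 20 anchor genes, and up to 5 genes per direction of each contrast. The other called members of the naive, ATF4, methylation and formative lists, and *Vegfa*, *Egln1*, *Ldha*, *Insig1*, *Pmvk*, *Fbxo15*, *Sox15*, *Axin2*, *Crb3* and *Ocln*, were chosen after their values were seen. Members and lists were chosen with earlier results of these data known. Lists are described by counts and medians, without a set test, and some members are not reported here.

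Transcript lengths and GC content came from GENCODE M21, and trends on them were removed by loess (span 0.5) for an alternative added after seeing the data. Hairpin sequences were the study's. In data simulated for the step over 13173 genes, 100 were given a change of size 1 and 100 of size 2 (log2). Of these, 57% and 92% were called, with 7 unchanged genes called. The step itself called 45.9% of genes, so these rates are not the detection rates of the real fit.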

Additional observations from a re-analysis of the deposited data

Results flagged for a closer look

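Of 234 sets of 5 values checked, 18 had a value set apart from the other 4 by Dixon's criterion, and chance flags about 1 in 20. Total reads on day 5 were 6829596 in Smarca4.4, against 19747429 to 23551166 in the other series. In Smarcc1.6 the change stood apart for *Kif1a* (2.13 against 3.64 to 3.82), *Bnip3* (2.76 against 1.51 to 1.86), *Sesn2* (-1.58 against -0.62 to -0.24), *Bub1b* (-1.23 against -0.45 to -0.22), *Dnmt3b* (-0.72 against 0.06 to 0.32), *Cdh1* (-1.11 against -0.20 to 0.08), *Dnmt1* (-2.16 against -1.03 to -0.65) and *Axin2* (-3.58 against -2.09 to -1.55). In Nons it stood apart for *Tubb3* (-0.21 against -1.01 to -0.79), *Oasl2* (0.53 against 2.19 to 2.75) and *Gprc5a* (-2.39 against -1.42 to -1.08), and in Smarca4.6 for *Pmvk* (1.74 against 0.98 to 1.16).

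Among the levels, Nons stood apart on day 4 for *Sox2* (264 rpm against 281 to 284), *Fgf5* (26.4 rpm against 7.99 to 11.3) and *Otx2* (106 rpm against 62.5 to 74.8). Smarca4.6 did so for *Krt8* on day 4 (16.1 rpm against 9.47 to 11.3) and *Ttn* on day 5 (5.1 rpm against 13.1 to 15.7).

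The change from day 4 to 5 differed from that from day 6 to 7 in 7441 genes and from that from day 5 to 6 in 3070. Against the step of day 6 to 7 the differences were 4.79 for *Grin1*, 4.35 for *Gchfr*, 4.29 for *Mgst1*, 4.25 for *Mal2* and 4.19 for *Gnmt*, and -4.45 for *Ahnak*, -4.38 for *Gprc5a*, -4.34 for *Nrp2*, -4.21 for *Rusc2* and -4.14 for *Epha4*. Against the step of day 5 to 6 they were 4.07 for *Grin1*, 3.50 for *Gchfr*, 3.33 for *Vldlr*, 3.32 for *Cxcl12* and 3.11 for *Mt3*, and -5.73 for *Ahnak*, -5.69 for *Acta2*, -5.59 for *Mme*, -5.48 for *Thbs1* and -4.51 for *Cyr61*.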

How the results depend on the processing

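The count of genes called, 6043 in the paired fit, was 3984 (1490 higher) among genes with at least 10 rpm, where fewer genes were tested. It was 5735 (2621 higher, 3114 lower) with no replicate block, and 4872 to 6001 with 1 series left out (2109 to 2917 higher, 2544 to 3101 lower). The other alternatives kept it within 1.5 times. The count that differed from the step of day 5 to 6 was 1672 without the block and 1966 to 2653 with a series left out, and from the step of day 6 to 7 it was 6287 and 6123 to 7084. The contrast of Smarcc1 and Smarca4 knockdown gave 0 to 7 genes, and both contrasts with Nons 0. The mean distance was 96.89 over the genes tested and 127.1 with a common lowest value. Of 175 named genes called, 153 were called in the same direction in each alternative that tested them, 22 lost the call in 1 or more and 0 turned. Without the block these included *Smarcc1* (adjusted p = 0.0951) and *Smarca4* (0.373), whose levels the hairpins set apart between series. *Dnmt3b*, not called, was 0.05 when centred, 0.02 by limma-voom, -0.10 to 0.16 with a series left out (0.16 without Smarcc1.6), 0.12 and 0.17 with the length trend or both trends removed, and 0.15 in the 3 series Nons, Smarca4.4 and Smarcc1.7. The cause of these moves was not tested. The shallow Smarca4.4 library limits genes under 0.439 rpm.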
